A study of Sus scrofa with 9 samples.

Results

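The microRNAs (miRNAs) of the pig spleen were compared between 210 and 90 days after birth, with 3 small RNA libraries at each age. The members were all entries that the deposited table names as pig miRNAs, whatever their level. There were 453 of them among 975 entries, and the other 522 were predicted candidates. The 6 libraries were part of a series of 9, in which the other 3 were taken at day 30. Tissue at both ages was Ningxiang pig spleen, from a Chinese native breed, with no treatment or altered gene named in the labels. The labels do not give the sex of the animals or say that the libraries of 1 age came from separate animals. So p-values measure the spread between libraries of 1 age, pooled over all 9 with day 30 included, and this spread may be technical.

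A miRNA is a short RNA that guides an Argonaute protein to messenger RNAs, which are then translated less and decay faster. Target choice rests largely on the seed, bases 2 to 8 from its 5′ end, so miRNAs with the same seed are counted as a family. Both strands of the precursor hairpin, called the 5p and 3p arms, can be kept, and usually 1 dominates. The spleen filters blood and is a lymphoid organ, so its miRNAs come from B and T cells, myeloid cells, red cells and their precursors, vessels, and a capsule and trabeculae that hold smooth muscle.

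The sequences of the miRNAs on which the results turn are given here from the deposited table, as DNA letters 5′ to 3′ with the seed in capitals. The first group was higher at day 210.
miR-145-5p: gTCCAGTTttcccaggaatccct
miR-133a-3p: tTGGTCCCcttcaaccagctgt
miR-127: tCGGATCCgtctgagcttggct
miR-342: tCTCACACagaaatcgcacccgt
miR-23b: aTCACATTgccagggattaccact
miR-497: cAGCAGCAcactgtggtttgt
miR-195: tAGCAGCAcagaaatattggca
miR-371-5p: aCTCAAACtgtgggggcacttt
miR-10386: cGTCGTCCtctccctccctcct
mir-4332-p5: tGTCGCGGgggtgggcgggc
The next group was lower at day 210.
miR-146b: tGAGAACTgaattccataggctgt
miR-221-3p: aGCTACATtgtctgctgggtttc
miR-128: tCACAGTGaaccggtctcttt
miR-504: aGACCCTGgtctgcactctatc
miR-224: cAAGTCACtagtggttccgttt
mir-452-p3: tCAGTCTCaactgcaaagaagt
miR-33b-3p: cAGTGCCTcggcagtgcagcc
The last group is shown because each shares its seed with a miRNA above and did not pass the test.
miR-15b: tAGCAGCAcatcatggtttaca
miR-16: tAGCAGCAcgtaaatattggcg
miR-146a-5p: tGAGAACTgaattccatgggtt
miR-222: aGCTACATctggctactgggtct
miR-23a: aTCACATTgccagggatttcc
Thus miR-195 and miR-497 carry the seed of miR-15b and miR-16, miR-146b that of miR-146a-5p, miR-221-3p that of miR-222, and miR-23b that of miR-23a.

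Values are the authors' normalised read numbers. Their smallest steps put the depth at 7014097, 6101939 and 4501538 reads in day 210 replicates 1, 2 and 3, against 6679614, 6564233 and 9252284 reads at day 90. The value of 5 reads, below which few entries are listed, was 5.33, 6.46 and 8.0 at day 210, against 4.79, 5.08 and 3.80 at day 90. The day 210 libraries listed 387, 380 and 373 named miRNAs above 0, against 395, 396 and 413 at day 90. With candidates, 576 ± 35.6 entries were listed at day 210 and 641 ± 36.5 at day 90 (SD, n = 3 each; exact two-sided permutation test, p = 0.1, the smallest that 3 against 3 allows, and p = 0.3 for the depth). The 10 most abundant entries held 58.5 ± 1.28% of all values at day 210 and 54.0 ± 1.38% at day 90 (same exact test, p = 0.1). The libraries of day 210 also differed more among themselves. The median SD of log2(value + 1) over the 270 named miRNAs with a mean of at least 100 was 0.353 at day 210 and 0.167 at day 90. Day 210 replicate 3, the shallowest library, stood furthest from the others of its age, with Spearman correlations across miRNAs of 0.969 and 0.974 to replicates 1 and 2, which had 0.983 with each other. The values of a library summed to 7.20e+06 to 7.88e+06 at day 210, against 6.40e+06 to 7.03e+06 at day 90. In bulk tissue fewer cells of a type and less of a miRNA per cell cannot be told apart.

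miR-145-5p of smooth muscle, miR-133a-3p of striated muscle, miR-127 of the imprinted DLK1-DIO3 region, lymphocyte miR-342 and the pair miR-195 and miR-497 rose at day 210, by 1.47-fold to 2.31-fold. miR-146b, of immune activation, fell 3.71-fold, and miR-221-3p, miR-128 and miR-504 fell 1.51-fold to 1.80-fold. Of the 406 named miRNAs tested, 16 rose and 18 fell at day 210 (limma on log2(value + 1), Benjamini-Hochberg adjusted p under 0.05). The rises are 3.94% and the falls 4.43% of the named miRNAs tested, 8.37% together. Over all 630 entries tested, candidates included, these shares were 4.13%, 3.97% and 8.10%. The ages did not overlap in any of the 34, nor in 130 of the 406 named miRNAs (32.0%, beside 29.2% of all entries). Day 210 lay above day 90 in 49 of the 130 and below it in 81. The other 47 named miRNAs were too low to test, with no value above 12.8 in these 6 libraries. Of the 16 that rose, 12 had a mean over the 6 libraries of at least 1000, but only 6 of the 18 that fell did, and 10 of those had a mean under 100.

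**Figure D1:**
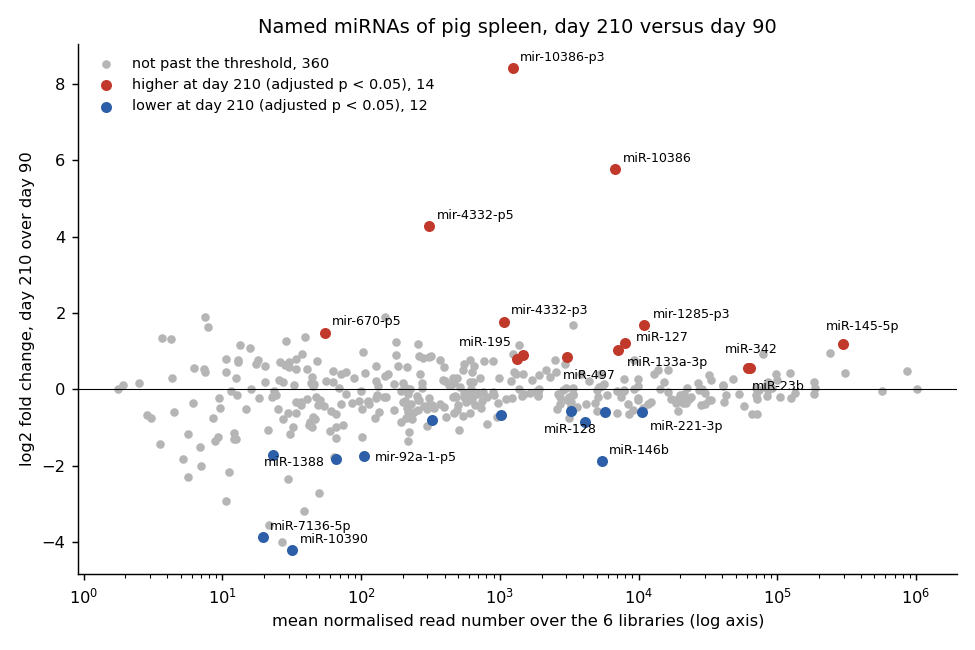
Log2 fold change of day 210 over day 90 (y axis) against mean normalised read number over the 6 libraries (x axis, log scale) for the 386 tested named miRNAs above 0 in at least 1 library of both ages, each point 1 miRNA. The calls that rose sit mostly at high levels, with miR-145-5p furthest right, and the calls that fell include many at low levels. The 20 miRNAs at 0 throughout 1 age are not drawn.

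The number of calls depended on the library left out. Without day 210 replicate 3 it was 34 higher and 58 lower, and 32 of the original 34 were among them. It was 2 higher and 5 lower without day 210 replicate 2, and 3 and 3, 3 and 4, and 9 and 5 without day 90 replicates 1, 2 and 3. Only miR-145-5p, miR-371-5p, miR-224 and miR-33b-3p passed in every fit without 1 library that tested them. miR-371-5p, above 0 only at day 210, was too low to test in any fit without a day 210 library. miR-224, at 0 at day 210, met the filter only with the help of day 90 libraries, where it was high. The highest adjusted p of the other 30 over those fits lay between 0.0513 and 0.167. Of the 34, 29 passed with equal library sums, 27 with GC correction and 18 with all values under 8.0 raised to 8.0. Scaling the libraries to equal sums gave 11 higher and 28 lower and moved the median log2 fold change of all entries to -0.31, against -0.14, while correction for GC content gave 38 higher and 13 lower with a median of 0.06.

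miR-145-5p, which with miR-143 comes from 1 cluster and is best known from smooth muscle, had 410673, 502685 and 334004 normalised reads at day 210, against 175663, 155588 and 219955 at day 90. Every day 210 library lay above every day 90 library, and the share of all values was 5.50 ± 0.87% at day 210 and 2.73 ± 0.40% at day 90 (SD, n = 3 each). It rose 2.26-fold (log2 fold change 1.17 ± 0.17 (SE), adjusted p = 0.00683). It was the single call among the 10 most abundant miRNAs, and it passed in all 22 alternative fits. Its cluster mate miR-143-3p, the second most abundant miRNA, had 849972, 1014110 and 1133700 at day 210, against 643198, 647052 and 878184 at day 90, with overlap between the ages (adjusted p = 0.0924). The 4 smooth muscle entries, both arms of both miRNAs, all had estimates above 0, with a median log2 fold change of 0.44, and 1 of them passed. The median of all named miRNAs tested was -0.15.

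Among miRNAs of striated muscle, miR-133a-3p had 9687, 11119 and 7928 normalised reads at day 210, against 4241, 4055 and 5735 at day 90. The day 210 libraries were all higher, and the rise was 2.05-fold (log2 fold change 1.04 ± 0.20 (SE), adjusted p = 0.0185). miR-1, which is transcribed with miR-133a in heart and skeletal muscle, had 2955, 3305 and 3013 at day 210, against 1719.6, 1312 and 2595 at day 90. Its ages did not overlap either, but it did not pass (adjusted p = 0.071). Of the 6 striated muscle entries 1 rose, none fell, 5 had estimates above 0, and the median was 0.62. The summed level of the 6 was 11682 to 15119.7 at day 210 and 5774 to 9136 at day 90. Their part in the results was not tested.

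The DLK1-DIO3 region is imprinted, and its many miRNAs are made from the maternal chromosome in mouse and human. miR-127, which lies antisense to the RTL1 gene, had 11098, 8126 and 14068 normalised reads at day 210, against 3821, 6036 and 4483 at day 90. It rose 2.31-fold (log2 fold change 1.21 ± 0.23 (SE), adjusted p = 0.0185), with no overlap between the ages. It was the single member of 22 tested that passed. The region's entries, both arms of some hairpins among them, shared the direction nonetheless, with 20 of 22 estimates above 0 and a median log2 fold change of 0.81. In 12 of the 22 day 210 lay above day 90 with no overlap, beside 12.1% of the named miRNAs and 13.3% of all entries tested. Day 210 replicate 3 was the highest library in many of them, as in miR-381-3p, with 1233, 899.9 and 2943 at day 210, against 744, 782 and 840 at day 90 (adjusted p = 0.177). Without that library the median was 0.44 and again 1 member passed.

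**Figure D2:**
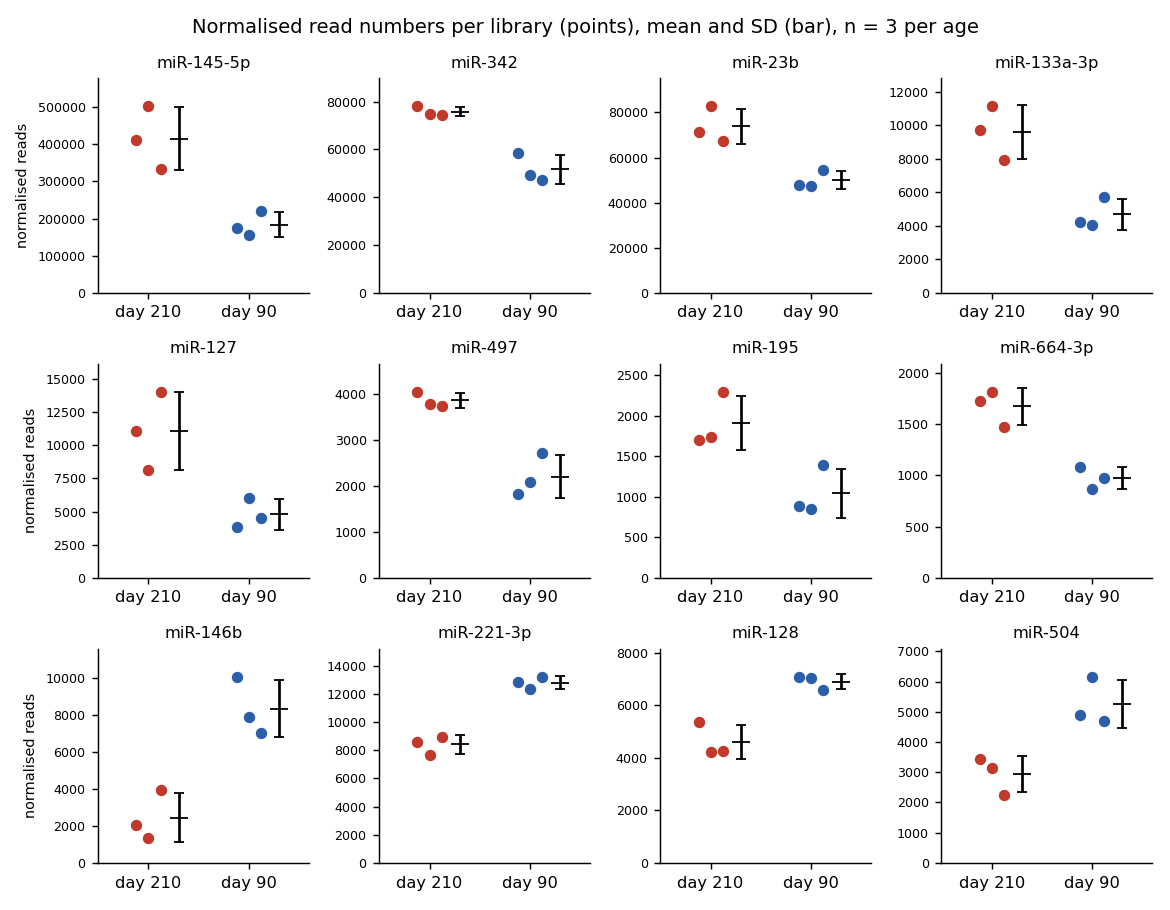
Normalised read numbers (y axes, linear from 0) of 12 miRNAs that passed the test, with day 210 left of day 90 in each panel. Points are the 3 libraries of an age in replicate order, and the bar is their mean and SD. No panel has overlap between the ages, and the spread of miR-146b and miR-127 at day 210 is wide.

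miR-342, made from an intron of EVL and abundant in mature lymphocytes, had 78069.6, 74842 and 74558 normalised reads at day 210, against 58513, 49392 and 47060.1 at day 90. The day 210 libraries lay close together and above all of day 90. The rise was 1.47-fold (log2 fold change 0.56 ± 0.12 (SE), adjusted p = 0.0205), and it did not pass with equal library sums (adjusted p = 0.0788). miR-150, the other mature lymphocyte miRNA, known to limit MYB, had 89536, 95279.5 and 89681 at day 210, against 86999.6, 82724 and 70528 at day 90. Its ages did not overlap, but it did not pass (adjusted p = 0.316). Of the 3 mature lymphocyte entries 1 rose and none fell. The third, the 5p arm of miR-342, had 878, 652 and 666 at day 210, against 911, 702 and 703 at day 90. Of the 7 entries of miR-181, which tunes lymphocyte development, none passed, and their median of -0.22 was 0.026 with GC correction. 1 of the 7 fell without day 210 replicate 3. miR-181a had 91612, 103445 and 92980.3 at day 210, against 109907, 126225 and 99593 at day 90.

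miR-146b acts, like the NF-κB target miR-146a, on TRAF6 and IRAK1 in human cells. It had 2073, 1362 and 3923 normalised reads at day 210, against 10089.6, 7930.5 and 7052 at day 90. Even the highest library of day 210 lay below the lowest of day 90. The fall was 3.71-fold (log2 fold change -1.89 ± 0.35 (SE), adjusted p = 0.0149). In the order of age, it had 3423, 2759.8 and 4535 at day 30, then 10089.6, 7930.5 and 7052 at day 90 and 2073, 1362 and 3923 at day 210. The opposite arm, mir-146b-p3, had 28.8, 15.5 and 44.8 at day 210, against 125, 96.6 and 73 at day 90 (adjusted p = 0.117). miR-146a-5p, with the same seed and far higher levels, had 55579, 39786 and 73615 at day 210, against 72140.4, 82731 and 102978 at day 90, and did not pass (adjusted p = 0.115). miR-155-5p, of activated lymphocytes and macrophages, had 4039, 3119 and 5896 at day 210, against 6001, 4691 and 5489.9 at day 90 (adjusted p = 0.321). Of the 4 immune activation entries 1 fell and all 4 estimates lay below 0. Without day 210 replicate 3, 3 of the 4 fell.

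The miR-142, miR-223 and erythroid entries pointed the same way without passing, unlike lymphocyte miR-342 and miR-150, whose estimates lay above 0. miR-223, of granulocytes and monocytes, had 6354, 4776 and 5458 at day 210, against 9397, 7856 and 8188 at day 90 with no overlap (adjusted p = 0.115). None of the 4 entries of miR-142 and miR-223 passed, all 4 estimates were below 0, and their median was -0.62. Without day 210 replicate 3, 2 of the 4 fell. Erythroid miR-451 ran from 5005 to 20851 at day 210 and from 9040 to 16633 at day 90, so that the spread of day 210 covered that of day 90. None of the 4 erythroid entries passed, all 4 lay below 0, and the median was -0.47, -0.73 without day 210 replicate 3. miR-126 of endothelium and miR-199 and miR-214 of fibroblasts gave no call among 3 and 5 entries, and both medians, -0.17 and -0.13, turned positive with GC correction, at 0.12 and 0.13. 1 fibroblast entry rose without day 210 replicate 3.

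miR-221-3p, which in human cells acts on CDKN1B and KIT, had 8613, 7659 and 8979.9 normalised reads at day 210, against 12855, 12349.9 and 13236 at day 90. The libraries of each age lay close together, and the fall was 1.53-fold (log2 fold change -0.61 ± 0.12 (SE), adjusted p = 0.0196). Its neighbour miR-222 had 10146, 5774 and 4533 at day 210, against 10525, 10350.4 and 9529 at day 90, with replicate 1 of day 210 inside the range of day 90 (adjusted p = 0.133). The 2 carry 1 seed, and their summed level was 18759.5, 13432 and 13513 at day 210, against 23379.7, 22700.2 and 22765 at day 90, a fall of 0.61 on the log2 scale with an SE of 0.15 (adjusted p = 0.0327, limma over 529 seed totals). The seed total did not pass without day 210 replicate 2, without day 30 replicate 3 or without any 1 day 90 library (adjusted p from 0.0527 to 0.115). With GC correction miR-221-3p no longer passed (adjusted p = 0.135). 1 of 3 entries of the pair fell and all 3 lay below 0.

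The miR-15/16 family, whose members restrain BCL2 and cyclins, was split between 2 members that rose and others that did not pass. miR-497 had 4059.8, 3796 and 3744 normalised reads at day 210, against 1817, 2078 and 2715 at day 90, and rose 1.78-fold (log2 fold change 0.83 ± 0.16 (SE), adjusted p = 0.0185). Its cluster mate miR-195 had 1695, 1740.3 and 2296 at day 210, against 887, 853 and 1393 at day 90, and rose 1.86-fold (log2 fold change 0.89 ± 0.23 (SE), adjusted p = 0.0395). Both sets of libraries were separate by age, and miR-195 did not pass with equal library sums (adjusted p = 0.0728). miR-15b had 21054, 22892 and 22839 at day 210, against 27847, 25601 and 23627 at day 90 (adjusted p = 0.259), and miR-16 had 5921, 5428 and 11214 at day 210, against 9067, 8856 and 9869 at day 90 (adjusted p = 0.381). Of their minor arms mir-15b-p3 fell, with 225, 191 and 302 at day 210, against 397, 439 and 404 at day 90 (log2 fold change -0.81 ± 0.21 (SE), adjusted p = 0.0457), and mir-16-2-p3 was listed at 0 in all 3 day 210 libraries, against 8.63, 7.12 and 10.6 at day 90. So 2 of 10 tested entries of these hairpins rose and 2 fell, and 2 rose and 4 fell without day 210 replicate 3. With all libraries, both that fell were minor arms, which do not carry the family's seed. The family's total by seed, which adds miR-15a and miR-424-5p, had 33299, 34314 and 41034 at day 210, against 40522, 38173 and 38473 at day 90, so the total did not move past the test (log2 fold change -0.11, adjusted p = 0.552).

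miR-23b, made with miR-27b and miR-24, had 71316, 82710.5 and 67371 normalised reads at day 210, against 47862, 47563 and 54596 at day 90, and the rise was 1.47-fold (log2 fold change 0.56 ± 0.13 (SE), adjusted p = 0.0256). The day 210 libraries all lay above those of day 90. miR-27b-3p had 185201, 218761 and 181538 at day 210, against 159488, 160546 and 197906 at day 90 (adjusted p = 0.467). Of the 11 tested entries of miR-23, miR-24 and miR-27 1 rose and none fell, and the median of -0.10 was 0.12 with GC correction. 1 rose, 1 fell and the median was -0.045 without day 210 replicate 3.

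The miR-17-92 cluster, activated by MYC in proliferating lymphocytes, and its relative miR-106a-363 gave 18 of 19 estimates below 0, a median of -0.75 and 2 falls among 19. miR-17-5p had 6690.2, 5648 and 10102 at day 210, against 10635, 10264 and 11105 at day 90, with no overlap but no call (adjusted p = 0.122). The 2 that fell were minor arms, mir-20b-2-p3, listed at 0 in every day 210 library, against 21.1, 10.2 and 41 at day 90, and mir-92a-1-p5, with 91.7, 49.1 and 20.8 at day 210, against 138, 193 and 141 at day 90 (log2 fold change -1.75 ± 0.46 (SE), adjusted p = 0.0457). miR-92a itself, the most abundant member, had 96950.2, 99867 and 58573 at day 210, against 79106, 85271 and 70359 at day 90. Without day 210 replicate 3, 11 of the 19 fell and the median was -0.98. In that library miR-17-5p, miR-20a-5p and miR-106a stood above replicates 1 and 2, and miR-92a below them.

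The miR-99/100/125 family pointed up without a call in the 15 entries tested. All 15 estimates were above 0, and the median was 0.46, 0.30 with equal library sums. The 15 include both arms and several forms of the same hairpins, read in the same libraries, so they are not separate miRNAs. In 4 of the 15 day 210 lay above day 90 with no overlap, beside 12.1% of the named miRNAs and 13.3% of all entries tested. miR-125b, which promotes blood stem cell survival in mouse, had 432227, 356119 and 174701 at day 210, against 118486, 168156 and 191835 at day 90 (adjusted p = 0.107). Replicate 3 of day 210 lay inside the day 90 range there, and without it 5 of the 15 rose and the median was 0.79. miR-99a-5p had 344342, 351043 and 352305 at day 210, against 238253, 254064 and 290789 at day 90 with no overlap (adjusted p = 0.0798). let-7c, its neighbour, had 109904, 118500 and 104509 at day 210, against 84446, 82188 and 86413 at day 90 (adjusted p = 0.0536). None of the 17 let-7 entries passed, 4 lay above 0, and their median of -0.10 was 0.069 with GC correction. Without day 210 replicate 3, 5 of the 17 fell, 1 rose and the median was -0.23.

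**Figure D3:**
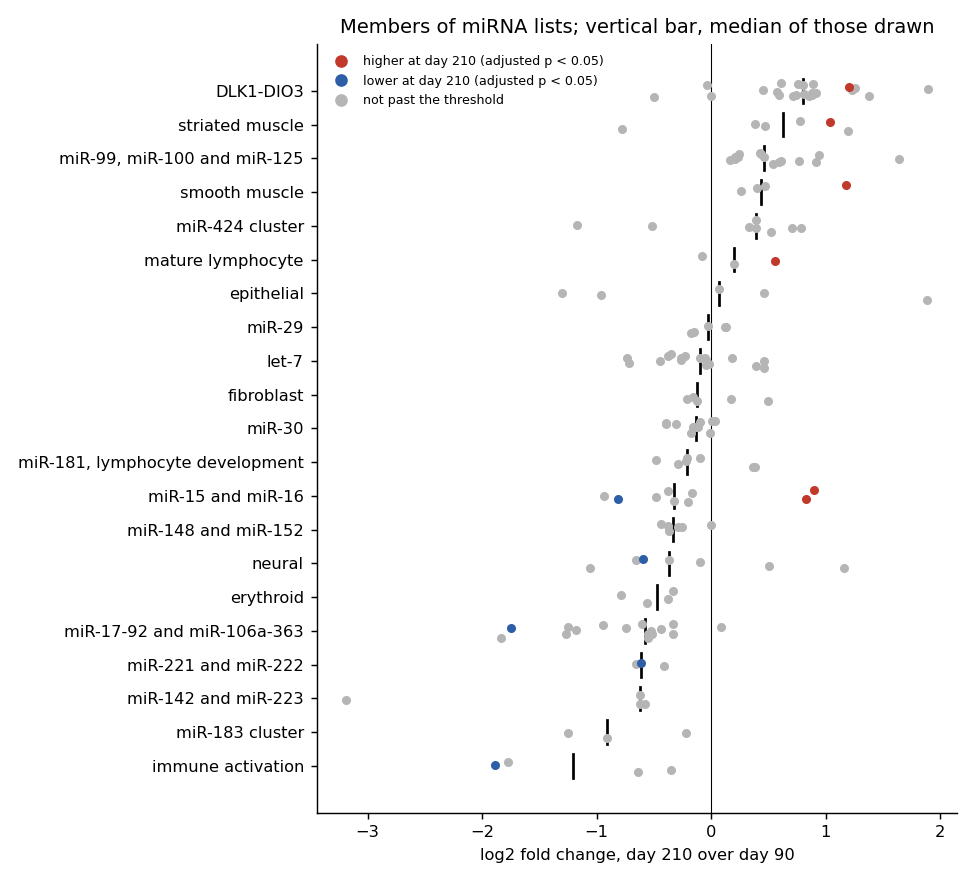
Log2 fold changes of day 210 over day 90 (x axis) for the members of 21 miRNA lists (rows), each point 1 tested entry above 0 in at least 1 library of both ages, with a vertical bar at the median of the entries drawn. Red and blue mark entries that passed the test. DLK1-DIO3 sits to the right, miR-17-92 and immune activation to the left, and most lists straddle 0.

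Several scarce miRNAs were listed above 0 at only 1 of the 2 ages compared, and no fold is given for them. miR-224 was listed at 0 in every day 210 library, against 32.6, 50.8 and 33.4 normalised reads at day 90 (adjusted p = 0.0019). It had 7.64, 6.68 and 4.34 at day 30. mir-452-p3, from the neighbouring hairpin in the GABRE gene, was also at 0 at day 210, against 14.4, 16.3 and 19 at day 90 (adjusted p = 0.0136). miR-452 had 5.33, 6.46 and 8.0 at day 210, against 20.1, 19.3 and 13.7 at day 90 (adjusted p = 0.186). miR-33b-3p, whose hairpin lies in SREBF1 in human, was at 0 at day 210, against 32.6, 71.2 and 17.5 at day 90 (adjusted p = 0.00292), and miR-219a at 0, against 9.59, 21.3 and 16 at day 90 (adjusted p = 0.00796). In the other direction, miR-371-5p, of the embryonic stem cell cluster known from human, had 32, 634 and 182 at day 210, and was listed at 0 in all 3 libraries of day 90 and of day 30 (adjusted p = 0.00374). mir-324-p3_1ss20GA had 6.4, 9.68 and 9.6 at day 210, against 0 in all of day 90 (adjusted p = 0.0248). Several of these lie near the level of 5 reads. With all values under 8.0 raised to 8.0, miR-224 and mir-452-p3 passed and the other 6 that were at 0 in 1 age did not. mir-452-p3, at 0 at day 30 too, and miR-371-5p met the filter only through the age at which they were high. miR-224 and mir-20b-2-p3 also needed day 90 libraries to meet it, with only 4.34 and 3.62 in day 30 replicate 3. The adjusted p-values of these miRNAs, and the passes of miR-224 and mir-452-p3 under this floor, carry that selection.

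Among the entries that rose were 4 with a high GC content. miR-10386 had 391, 4396 and 35846 normalised reads at day 210, against 86.3, 46.8 and 90.5 at day 90 (log2 fold change 5.77 ± 1.29 (SE), adjusted p = 0.0248). The day 210 libraries differed widely from each other, with replicate 3 the highest and replicate 1 the lowest. mir-10386-p3 had 45.9, 874 and 6516 at day 210, against 5.75, 0 and 0 at day 90 (log2 fold change 8.41 ± 1.74 (SE), adjusted p = 0.0205). The size of this change depends on the value taken for the libraries listed at 0. mir-4332-p5 had 149, 387 and 1246 at day 210, against 35.5, 6.1 and 38 at day 90 (log2 fold change 4.27 ± 0.98 (SE), adjusted p = 0.0275), again with replicate 3 highest. The other arm, mir-4332-p3, was even across replicates, with 1428, 1937 and 1579 at day 210, against 451, 460.5 and 527 at day 90 (log2 fold change 1.77 ± 0.44 (SE), adjusted p = 0.0385). miR-10386 has a GC content of 68.2% and the other 3 of 83.3% to 85.0%, where the median of the tested named miRNAs is 47.8%. Of the 15 tested named miRNAs with a GC content of at least 70%, 8 had estimates above 0, and the median was 0.03. Among the calls that fell, 1 had such a GC content, miR-33b-3p. The summed level of all named miRNAs of this GC content was 9290, 11119 and 14921 at day 210, against 8091, 8710 and 6888 at day 90. That sum includes mir-10386-p3, mir-4332-p5 and mir-4332-p3, and mir-10386-p3 alone held 6516 of the 14921 in replicate 3. So the higher sum at day 210 cannot be read apart from these 3 calls, and the sum without them was not computed. Under a floor of 8.0 none of these 4 passed, with adjusted p from 0.0643 to 0.0819, and mir-4332-p3 did not pass with GC correction.

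**Figure D4:**
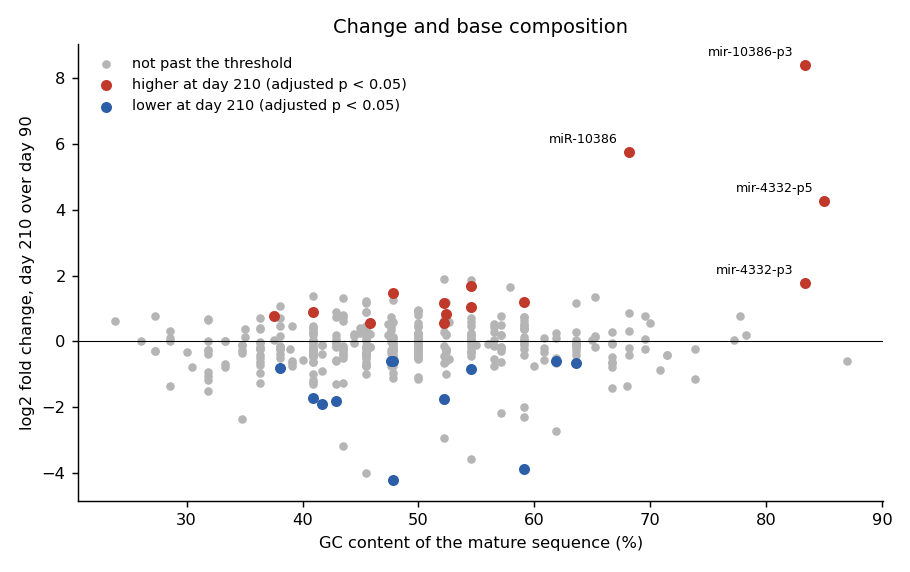
Log2 fold change of day 210 over day 90 (y axis) against the GC content of the mature sequence (x axis, %) for the 386 tested named miRNAs drawn above. The 4 labelled miRNAs with a GC content over 68% stand apart from the other GC-rich ones drawn, which scatter around 0. miR-33b-3p, GC-rich and lower at day 210, is not drawn because it was at 0 throughout that age.

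The remaining calls have less known roles. miR-128, best known from brain, had 5356, 4221 and 4258 at day 210, against 7099.9, 7048 and 6583 at day 90, a fall of 1.51-fold (log2 fold change -0.59 ± 0.14 (SE), adjusted p = 0.0295), and the ages did not overlap. It did not pass with GC correction (adjusted p = 0.139). With miR-219a it made 2 falls among 8 neural entries, where 2 rose and 3 fell without day 210 replicate 3, and miR-129a-3p, of 1687, 2962 and 1166 at day 210, against 1072, 623 and 788 at day 90, pointed the other way (adjusted p = 0.0596). mir-1285-p3 rose, with 7766, 13548 and 30458 at day 210, against 4248, 4694 and 4947 at day 90 (log2 fold change 1.67 ± 0.41 (SE), adjusted p = 0.0363). mir-670-p5 rose and had 103, 78.8 and 60.8 at day 210, against 36.4, 27.4 and 21.3 at day 90 (log2 fold change 1.48 ± 0.39 (SE), adjusted p = 0.0457). miR-1388 fell and had 24.5, 18.1 and 48 at day 210, against 86.3, 106 and 111 at day 90 (log2 fold change -1.82 ± 0.38 (SE), adjusted p = 0.0205). miR-7136-5p and miR-10390 fell at low levels (adjusted p = 0.0337 and 0.0395), with no value above 9.60 and 24.5 at day 210, against values of 15.2 to 59.4 and 37.4 to 72.2 at day 90. The forms miR-10390_L-3 and miR-10390_L-5 had estimates below 0 but did not pass (adjusted p = 0.591 and 0.177). Another 5 passed. miR-664-3p rose, with 1727, 1819 and 1475 at day 210, against 1079, 865 and 977 at day 90 (log2 fold change 0.78 ± 0.17 (SE), adjusted p = 0.0248). miR-504, made from an intron of FGF13, fell, with 3428, 3145 and 2259 at day 210, against 4911, 6166 and 4706 at day 90 (log2 fold change -0.85 ± 0.18 (SE), adjusted p = 0.024). miR-1842, miR-9841-3p and mir-301-p5 fell by 0.67, 0.58 and 1.72 on the log2 scale, with adjusted p = 0.0313, 0.0385 and 0.0385. With equal library sums miR-664-3p, mir-1285-p3 and mir-670-p5 did not pass (adjusted p from 0.0507 to 0.0685). With GC correction miR-1842, miR-9841-3p and mir-301-p5 did not (adjusted p from 0.0541 to 0.136).

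The other lists gave no call. They were miR-26 (4 tested), miR-29 (6), miR-30 (11), miR-191 and miR-425 (4), miR-28, miR-151 and miR-708 (6), miR-10 and miR-196 (7), miR-148 and miR-152 (6), the miR-183 cluster (3), miR-34 (3), miR-132 and miR-212 (4), miR-21 (2), the miR-424 cluster (8), epithelial (5) and pancreas and liver miRNAs (2). miR-26a, the most abundant miRNA, had 960793, 1033470 and 1080320 at day 210, against 964186, 993966 and 1112260 at day 90, and overlapped. miR-182, of the miR-183 cluster, had 606, 429 and 634 at day 210, against 1293, 700.4 and 1204 at day 90 with no overlap (adjusted p = 0.0596). miR-205, an epithelial miRNA, had 305, 280.2 and 128 at day 210, against 81.5, 43.7 and 59.3 at day 90 (adjusted p = 0.0987). miR-122-5p, of liver, had 154, 105 and 138 at day 210, against 125, 233 and 119 at day 90. Medians of the miR-148 and miR-152, miR-183, miR-132 and miR-212, and miR-21 lists were below 0, at -0.33, -0.91, -0.41 and -0.77, and that of the miR-424 cluster was above 0, at 0.39, as under equal library sums and GC correction. The miR-34 list was mixed, with 2 of 3 estimates above 0 and a median of 0.61. Its most abundant member, miR-34a, had 320, 188 and 518 at day 210, against 854, 571 and 609 at day 90 with no overlap (log2 fold change -1.08, adjusted p = 0.104). miR-34c had 201, 194 and 274 at day 210, against 168, 115 and 153 at day 90, with no overlap the other way (adjusted p = 0.146), and the summed level of the list was 545, 421 and 842 at day 210, against 1052, 702 and 782 at day 90. The miR-26, miR-29, miR-30, miR-191 and miR-28 lists had medians from -0.13 to -0.04 that turned positive with GC correction. These medians, without day 210 replicate 3, ran from -0.23 to -0.03, and that of the miR-424 cluster was 0.23. In the same fit 1 entry fell in each of the miR-21, miR-30, miR-34, miR-148 and miR-152, and miR-183 lists, and 1 epithelial entry rose.

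Summed by seed, 44 of 529 seeds passed (8.32%), 22 higher and 22 lower. Of the 53 seeds that hold at least 2 named miRNAs, 1 rose and 1 fell, and their median log2 fold change was -0.06. The one that fell was the seed of miR-221-3p and miR-222. The one that rose, CTGCCCC, belongs to minor forms of miR-324, with 11.7, 12.9 and 9.60 at day 210 and 0 in all 3 libraries of day 90, and did not pass with all values under 8.0 raised to 8.0 (adjusted p = 0.0855). The seed of miR-146a-5p and miR-146b had 57652, 41148 and 77537 at day 210, against 82230, 90662 and 110030 at day 90, with no overlap, and did not pass (log2 fold change -0.72, adjusted p = 0.0735). The seed of miR-23a and miR-23b had 146096, 163735 and 164776 at day 210, against 130222, 124482 and 136308 at day 90 (log2 fold change 0.28, adjusted p = 0.11). The let-7 seed had 387030, 389255 and 431734 at day 210, against 414175, 418512 and 435517 at day 90 (log2 fold change -0.072, adjusted p = 0.639).

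The balance of the arms, log2 of 5p over 3p within a library, passed for 7 of 137 precursors (5.11%), 6 toward 5p and 1 toward 3p at day 210. For miR-145 it was 5.59 ± 0.21 at day 210, against 4.68 ± 0.11 at day 90 (SD, n = 3 each), a difference of 0.91 ± 0.15 (SE), adjusted p = 0.0208. Its 5p arm rose while miR-145-3p had 8108, 9284 and 8138 at day 210, against 6464, 6634 and 8269.8 at day 90. For miR-92a it was -10.79 ± 0.70 at day 210, against -8.93 ± 0.21 at day 90 (difference -1.86 ± 0.35 (SE), adjusted p = 0.0294), with the scarce 5p arm lower at day 210. miR-2483, miR-1306 and miR-181c moved toward 5p, by 1.1 ± 0.21 (SE), adjusted p = 0.0294, by 0.74 ± 0.16 (SE), adjusted p = 0.0438 and by 0.58 ± 0.13 (SE), adjusted p = 0.0488. Those of miR-452 and miR-20b rest on 3p arms listed at 0 throughout day 210 and did not pass with all values under 8.0 raised to 8.0 (adjusted p = 0.894 and 0.363). That of miR-181c did not pass under this floor either (adjusted p = 0.0579), with the same difference. With all libraries 31 precursors had an unadjusted p under 0.05. No precursor that was tested passed when any 1 of the day 90 libraries was left out. miR-452 was too low to test in those fits, and it alone passed without day 210 replicate 2 and without day 30 replicate 2.

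**Figure D5:**
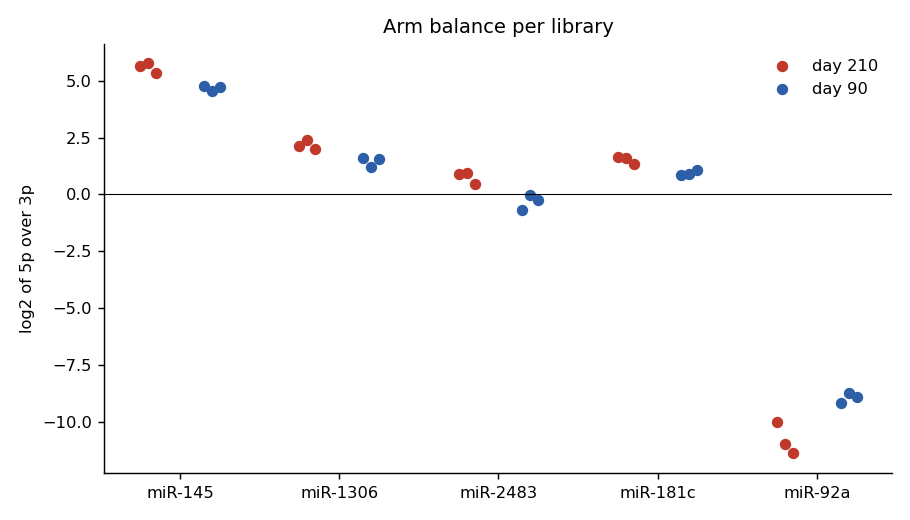
Log2 of the 5p over the 3p value per library (y axis, above 0 means more 5p) for 5 precursors that passed the test, with day 210 left of day 90 in each pair. Each point is 1 library. The ages do not overlap for any of the 5.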

How the data were processed

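Small RNA was measured in 9 spleen libraries of Ningxiang pigs, 3 at each of 30, 90 and 210 days. Per the labels' protocols, total RNA was extracted with Trizol, libraries were made with the TruSeq Small RNA kit, and reads were filtered with ACGT101-miR for adapters, low complexity, common RNA families and repeats. No label or header names the aligner, miRNA database, genome build or scaling. The deposited values are a normalised signal, read numbers scaled per library by the authors. If the commonest low value is 5 reads, 88.1% to 92.7% of all values above 0 are whole reads within 0.01, and depth was estimated from that step. No count test was run, since part of the values are fractions of reads.

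Repeats of an entry (5) were dropped. Entries with at least 5 in at least 3 of the 9 libraries were tested with limma 3.58.1 in R 4.3.3 on log2(value + 1), fitting 1 mean for each age to all 9 libraries, with a mean-variance trend and Benjamini-Hochberg adjustment over all 630 entries at 0.05. A fold change is on that scale, which understates changes of low entries listed above 0. Where libraries are listed at 0, its size depends on the value taken for them and may be overstated. For example, the log2 fold change of miR-7136-5p, day 210 versus day 90, was -3.88, and -1.77 under the floor used above. Seed sums and arm differences used the same fit. Scripts were tested on simulated data. Hairpin neighbours and host genes were read by name from RefSeq's Sscrofa11.1, for 209 of 257 miRNAs. The miRNAs named were the 10 largest rises and falls that passed with no overlap and a mean of at least 10 at either age, the most abundant, lowest-p and called members of each list, the 10 most abundant and the other arms. Other miRNAs named were chosen after their values were seen. The members and lists were chosen with earlier results of these data known. Of 36 lists 33 held a tested entry, and the others are not analysed here. Libraries were fitted as unpaired. Same-numbered libraries of the ages had correlations of their deviations of -0.079, 0.0074 and -0.027. Such values cannot show that the replicate numbers do not pair the libraries.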

Additional observations from a re-analysis of the deposited data

How the results depend on the processing

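The calls of named miRNAs, 34 with the reported settings, were 10 with only the 6 libraries compared, 15 without a mean-variance trend and 80 with library weights. Over the fits without 1 library they ranged from 6 to 92. Seed totals, 44 as reported, gave 12 with the 6 libraries, 21 without the trend, 78 with weights, 29 with named miRNAs only and 10 to 86 without 1 library. Arm balances, 7 as reported, gave 3 with the 6 libraries, 19 with weights, 1 with the replicate block and 0 to 15 without 1 library. The replicate block gave 33 calls of named miRNAs, and with GC correction it gave 49, but whether the replicate numbers pair the libraries is not known. The difference in the share of the 10 most abundant entries, in listed entries and in depth kept its direction without any 1 library. Of 1925 values of 89 named miRNAs under the alternatives, 47 turned their sign, all of miRNAs that had not passed. With GC correction, and likewise with the replicate block and GC correction, let-7g was 0.053, miR-15b 0.084, miR-29a-3p 0.26, miR-30c-5p 0.19, miR-30d 0.12, miR-122-5p 0.069, miR-126-3p_R-1 0.14, miR-181a 0.026, miR-191 0.19 and miR-199a-5p 0.10. With equal sums miR-26a was -0.16, miR-92a -0.081, miR-132 -0.16 and miR-339_R+1 -0.14. Library weights gave miR-26a -0.010, miR-30c-5p 0.067, miR-132 -0.22 and miR-191 0.066, and median-ratio rescaling miR-29a-3p 0.0090. Over the fits without 1 library, miR-26a ranged from -0.039 to 0.064, miR-29a-3p from -0.076 to 0.0075, miR-30c-5p from -0.25 to 0.16, miR-92a from -0.050 to 0.34, miR-122-5p from -0.38 to 0.095, miR-132 from -0.27 to 0.28, miR-191 from -0.14 to 0.12, miR-199a-5p from -0.23 to 0.046, miR-339_R+1 from -0.11 to 0.23 and miR-451 from -0.96 to 0.065. The arm balance of miR-452 was -0.082 under the common floor, which raises its 3p arm from 0. The cause of the other changes was not tested. Depth limits the entries near 5 reads.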

Other observations

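Among the 224 predicted candidates tested, 10 were higher and 7 lower at day 210. Both arms of mir-1285 were high in day 210 replicate 3: mir-1285-p5 had 3339.8, 4658 and 7505 normalised reads at day 210, against 1500.1, 1461 and 1638 at day 90 (log2 fold change 1.67 ± 0.47 (SE), adjusted p = 0.0596). Both arms of miR-1388 were low at day 210, where mir-1388-p3 had 0, 6.46 and 8.0, against 19.2, 18.3 and 14.4 at day 90 (adjusted p = 0.124). In the RefSeq annotation of Sscrofa11.1, hairpins within 10 kb of each other were grouped by name. The group of miR-195 and miR-497 gave 2 rises among 3 tested entries. The group of miR-127, miR-136 and miR-432 had all 4 estimates above 0, with a median log2 fold change of 1.32 and 1 rise. The group of miR-362, miR-500 and miR-532 had all 6 estimates below 0, with a median of -0.16, close to the -0.15 of all named miRNAs tested.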
